A study of Mus musculus with 20 samples.

Results

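Untreated oxalate mice were compared with untreated control mice across all expressed genes, with 5 RNA sequencing libraries in each group. These 10 libraries were picked by their sample titles from a series of 20. The other 10, from control and oxalate mice given alkali therapy, entered the filter on low counts, the scaling and the estimate of the spread. The series studied bicarbonate supplementation in crystal nephropathy, in which crystals damage the kidney. The labels name no strain, sex, age, tissue or time of sampling, and give neither the form nor the dose of oxalate. They give the control group as untreated and add no vehicle or diet. No label ties a library to its own animal. P-values here rest on how much libraries of a group differ, and some of that may be technical. Each library held 27268187 to 34106730 counts over 25700 genes, and 15430 genes were abundant enough to be tested.

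Oxalate is a waste product of glyoxylate metabolism that the kidney excretes, and with calcium it forms poorly soluble crystals in the tubule. Crystals injure tubule cells, which lose transport and metabolic functions and switch on repair genes, while phagocytes gather around the deposits and fibroblasts lay down matrix. The proximal tubule, the segment that reclaims most of the filtrate, supplies much of the RNA of a kidney. Its genes were present in every library, with Slc34a1 between 2341 and 6774 CPM (the gene's counts relative to its library's total) and the thick limb gene Umod between 1840.3 and 3185 CPM. Markers of adrenal cortex and skeletal muscle were near 0, with Cyp11b1 and Myh4 at or below 0.0880 and 0.246 CPM. Adipoq, made by fat cells, stood at 29.7 CPM in control library 26, 20.1 in control library 9 and 3.12 in oxalate library 32, and at or below 0.200 CPM in the other 7, on the scaled CPM used from here on.

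Increases in oxalate libraries were more often large than decreases. Changes are given as log2 fold changes of oxalate over control ± SE with n = 5 libraries per group, and a gene was called at an adjusted p under 0.05 (edgeR quasi-likelihood test). Of the genes tested, 7630 (49.4%) were called. Of all tested, 4067 (26.4%) were higher and 3563 (23.1%) were lower in oxalate libraries. At least 2-fold changes were called for 2145 genes (13.9%) upward and 288 (1.87%) downward. Upward changes of at least 8-fold were called for 319 genes and downward ones for 2. In 2851 genes (18.5%) every oxalate library lay above every control library, and in 2370 genes (15.4%) every oxalate library lay below. When libraries were scaled by total counts rather than by TMM, the median of all genes moved from -0.00 to 0.30, and 7498 genes were higher and 1308 lower, 85.1% higher against 53.3%. Directions of small changes are therefore relative to that shift.

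Called genes of high and of lower abundance differed in direction. By the mean CPM of both groups, 8.09% of the 1915 genes at or above 100 CPM were higher and 56.5% lower, with a median change of -0.33. Of the 2248 genes from 1 to 5 CPM, 46.4% were higher and 7.25% lower. Shares at low levels are in part set by the filter on low counts: 1756 of the genes tested were below it in at least 1 control library, and a gene that passed through oxalate libraries alone had to be higher there. Because all 20 libraries entered the filter, a gene could also pass through alkali libraries. Among the 13674 genes that passed in all 5 controls, 3199 were higher and 3529 lower. That set is picked by control levels, so it leaves out genes low in a control and keeps any that passed through controls alone. Below the filter in at least 1 oxalate library were 927 of the genes tested. Under 0.5 CPM in all 5 controls and above 2 CPM in all 5 oxalate libraries were 20 genes, and no gene showed the reverse. Among these 20 were Msr1, a scavenger receptor, Spib, a lymphoid and dendritic cell factor, the transmembrane glycoprotein Gpnmb, the lysozyme Lyz1, the matrix protease Mmp7 and the microtubule kinase Dclk1. They were picked by their values, and lie at one end of the plot of change against control level.

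**Figure D1:**
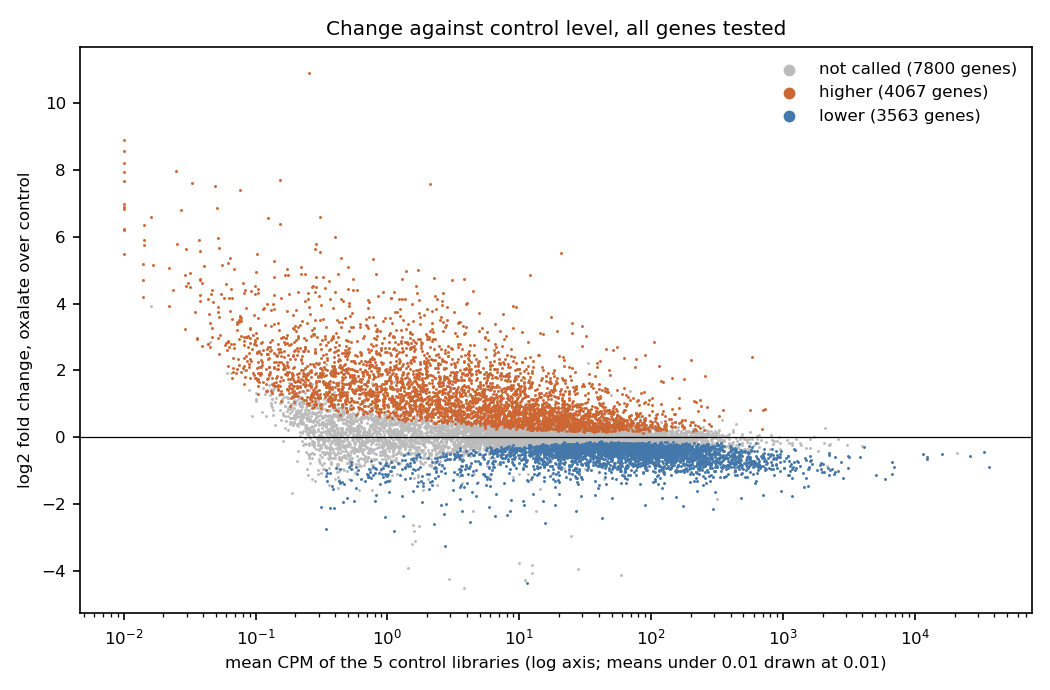
Each point is 1 of the 15430 genes tested, with its mean CPM in the 5 control libraries on a log axis and its log2 fold change of oxalate over control on the other axis. Genes called higher (4067) and lower (3563) are coloured. Of the 2189 genes with a control mean under 1 CPM, 1697 were below the filter on low counts in at least 1 control library.

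The oxalate libraries differed in how far they had moved. Over the 2145 genes called at least 2-fold higher, the median distance above the control mean was 2.28 in library 40, 1.94 in library 12, 1.66 in library 3, 1.45 in library 39 and 1.19 in library 32 (log2). Library 40 was the highest of the 5 for 74.6% of these genes and library 32 the lowest for 70.4%. For the 288 genes lower at least 2-fold the order was similar, with library 40 lowest for 71.5% and library 32 highest for 67.4%, while libraries 3 (-1.30) and 12 (-1.22) changed places. The spread of log2 CPM among oxalate libraries exceeded that among controls for 61.7% of genes, with median SDs of 0.24 and 0.18. On the leading principal component of the 10 libraries, which held 71.2% of the variance, controls lay between -68 and -45.4 and oxalate libraries between 19.8 (library 32) and 96.1 (library 40). Without library 32 the count of genes lower at least 2-fold was 520 in place of 288.

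Gains in CPM were led by few genes. Spp1, which encodes osteopontin, a secreted phosphoprotein that binds calcium crystals and also marks injured tubule cells, had 591, 613, 490.4, 644 and 545 CPM in control libraries 13, 19, 26, 35 and 9. In oxalate libraries 12, 3, 32, 39 and 40 it had 3688, 2727, 2146, 2701 and 3879.5 CPM. All 5 oxalate libraries were above all controls, and the change was 2.39 ± 0.22 (adjusted p = 4.5e-07). Libraries are named in this order for all values below. Spp1 lies on chromosome 5 from 104435118 to 104441050 in GRCm38, and a predicted gene overlaps it on the same strand, so its counts are uncertain. Next by mean CPM gained were Lyz2, the lysozyme of macrophages (from 20.8 ± 4.3 to 956 ± 558 CPM, SD), Cd74, the chaperone of MHC class II molecules (from 202 ± 36.4 to 1005 ± 268), and Clu, a secreted chaperone of injured tubules (from 258 ± 45.2 to 911 ± 111). Apoe, a lipid carrier, and the lysosomal proteases Ctsd and Ctsb followed. Lyz2 and Lyz1 are close copies, and reads may be split between them.

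Kap, an androgen-regulated gene of the proximal tubule, lost the most CPM, from 36274 ± 2795 to 19654 ± 6765 CPM (SD). Its change was -0.88 ± 0.24, and library 40 had the lowest level, 11290 CPM, and library 32 the highest of the oxalate group, 29274. Mitochondrially encoded subunit genes of the respiratory chain were among the next, such as mt-Cytb (-0.56 ± 0.18), mt-Nd2 (-0.59 ± 0.18) and mt-Nd5 (-0.67 ± 0.18). Under total-count scaling mt-Cytb, mt-Nd2, mt-Nd1 and mt-Co1 were no longer called, with adjusted p from 0.0685 to 0.226. The call of mt-Co1 (-0.46 ± 0.16) was also lost without control library 13 or 35 or oxalate library 12, and that of mt-Nd1 without oxalate library 12. A fit of the 10 untreated libraries alone ended the call of mt-Co1 as well (adjusted p = 0.0611). Acsm2, a mitochondrial acyl-CoA synthetase of the proximal tubule, fell by 1.10 ± 0.23 on the log2 scale, with 7406, 5848, 6223, 7563 and 6452 CPM in controls and 2869, 2997, 4690.1, 3375 and 1741 CPM in oxalate libraries. Gpx3, the secreted glutathione peroxidase, overlapped between groups and was not called (-0.47 ± 0.23, adjusted p = 0.0948), but was called with DESeq2 (adjusted p = 0.0462) and without oxalate library 32 (adjusted p = 0.0481).

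Outside those genes, the largest increases with a mean log2 CPM at or above 1 and libraries that did not overlap included phagocyte genes, proteases and a channel subunit. Arhgap36, an inhibitor of protein kinase A, had 3 counts in the control libraries together and 1235 in the oxalate libraries, a ratio of 385 per total count (95% exact counting interval 132 to 1871, which covers counting error only). Its oxalate levels ran from 4.33 to 10.7 CPM, and its fitted change of 7.99 was 9.0 without control library 35. Mmp12, the macrophage metalloelastase, had 1.23, 3.78, 1.37, 2.76 and 1.32 CPM in controls and 352, 279.7, 78.3, 202 and 1097 CPM in oxalate libraries, a change of 7.58 ± 0.79 (adjusted p = 1.14e-06). It was 6.72 without library 40, where Mmp12 was far above the other oxalate libraries, and a related gene overlaps it on the other strand. Trem2, a lipid-sensing receptor of macrophages, had 0.0847 to 0.713 CPM in controls and 33.6, 28.3, 10.9, 22.8 and 58.6 CPM in oxalate libraries, a change of 6.59 ± 0.62. Gabrp, a GABA receptor subunit that epithelia express, rose by 7.40 ± 0.65. Stac2, Fcrls, Cd300lb, Rgs1, Ahnak2 and Cd84 rose by 5.33 to 6.86. Without library 40 the changes of Cd300lb, Rgs1, Ahnak2 and Cd84 were 4.63 to 4.92.

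Decreases of genes whose libraries did not overlap were smaller. Synpr, a synaptic vesicle protein named after its values were seen, had the largest called decrease at a mean log2 CPM at or above 1 (-4.37 ± 1.14), with 0.214 CPM in control library 19 and 10.1 to 22 CPM in the other controls against 0.0331 to 2.27 CPM in oxalate libraries, so the groups overlapped. Without oxalate library 32 its change was -6.50. Kcnt1, a sodium-activated potassium channel, had 14, 20.2, 23.8, 9.78 and 26.1 CPM in controls and 4.87, 4.39, 4.6, 5.16 and 4.05 CPM in oxalate libraries, so the spread lay in the controls and the oxalate libraries were alike. Its change was -2.03 ± 0.26 (adjusted p = 5.08e-06). Azgp1, a secreted glycoprotein that acts on lipid breakdown, had 225, 130.1, 162, 179 and 168 CPM in controls and 46.6, 26.3, 91.8, 28.9 and 15.4 CPM in oxalate libraries (-2.05 ± 0.41). Chrdl1, an antagonist of BMP signals, fell by 2.04 ± 0.34 on the log2 scale, Srd5a2, the steroid reductase that makes dihydrotestosterone, by 2.21 ± 0.53, and Fcamr, a receptor for IgA and IgM, by 2.21 ± 0.38. Cntnap5a was at -2.33 ± 0.66, and at -3.32 without oxalate library 32. Car3, a carbonic anhydrase that fat cells also make, was at -2.03 ± 0.75, with 177 CPM in control library 26, 125 in control library 9 and 40 to 56.9 in the other controls. Those are the controls with Adipoq, and the part of fat cells in this difference was not tested. Leaving out control library 26 or 9 or oxalate library 12, 3 or 40 ended the call of Car3 (adjusted p from 0.0577 to 0.0863).

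**Figure D2:**
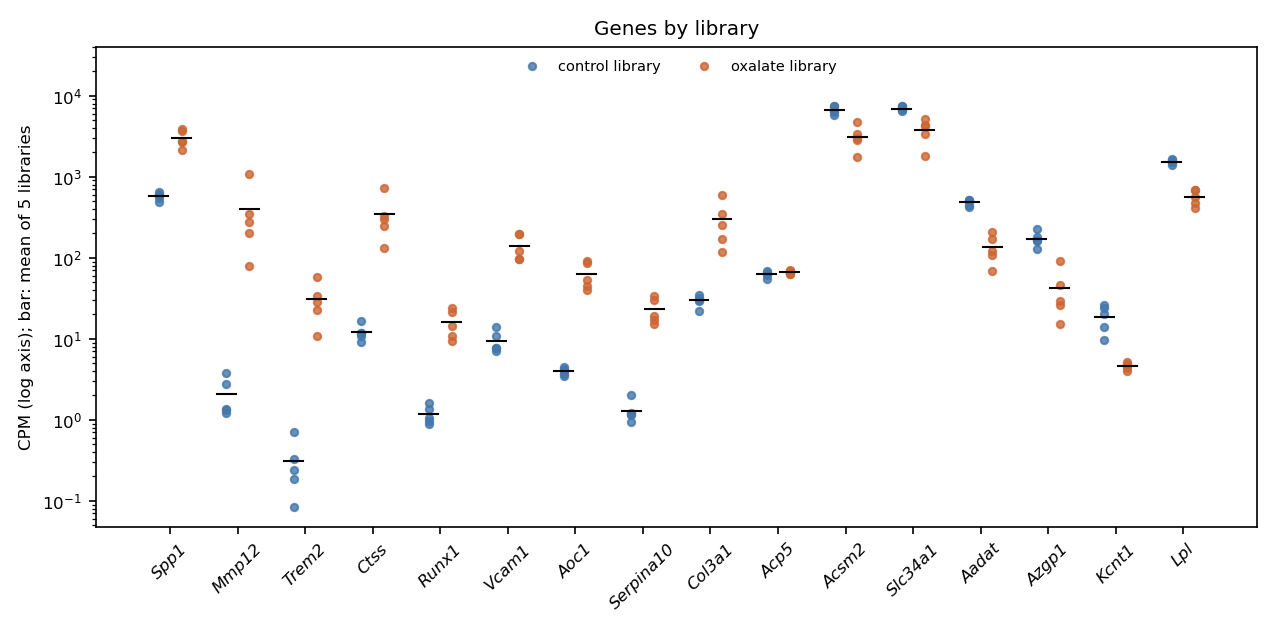
CPM of 16 genes in each of the 5 control and 5 oxalate libraries, on a log axis, with bars at the group means. Spp1, Mmp12, Trem2, Ctss, Runx1, Vcam1, Aoc1, Serpina10 and Col3a1 lay higher in every oxalate library than in any control, Acp5 overlapped, and Acsm2, Slc34a1, Aadat, Azgp1, Kcnt1 and Lpl lay lower.

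Upstream sequence was examined for short motifs in RefSeq promoter windows of GRCm38.p6, 250 bases before to 50 bases after the start, found for 11591 of 15420 tested genes with a unique symbol. Motifs were searched on both strands and may overlap one another. Among them were GGANTTTCC for NF-kB and TGANTCA for AP-1, both stress-driven factors, GAAANNGAA for interferon regulatory factors (IRF), GAGGAAGT for PU.1, the factor of myeloid cells, and CAAAGTCCA for HNF4, a factor of proximal tubule identity. The bases before the start are shown for 6 genes picked by hand, up to the first base of the annotated gene, with matches in capitals. Each of the 6 held a match, so they do not represent the named genes. They stand for the crystal-binding Spp1, the macrophage protease Mmp12, the interleukin 1 antagonist Il1rn and the macrophage growth factor Csf1, which were higher, and for the enzymes Agxt2 and Hpd, which were lower. The windows are chr5:104434861-104435110 on the + strand (Spp1), chr9:7344147-7344380 on the + strand (Mmp12), chr2:24336610-24336852 on the + strand (Il1rn), chr3:107760470-107760719 on the - strand (Csf1), chr15:10358283-10358531 on the + strand (Agxt2) and chr5:123182728-123182973 on the - strand (Hpd).
Spp1: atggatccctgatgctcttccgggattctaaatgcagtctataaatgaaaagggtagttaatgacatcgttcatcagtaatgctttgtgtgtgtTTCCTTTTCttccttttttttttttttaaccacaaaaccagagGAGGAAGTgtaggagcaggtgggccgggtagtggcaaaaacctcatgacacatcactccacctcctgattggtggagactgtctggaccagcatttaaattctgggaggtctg
Mmp12: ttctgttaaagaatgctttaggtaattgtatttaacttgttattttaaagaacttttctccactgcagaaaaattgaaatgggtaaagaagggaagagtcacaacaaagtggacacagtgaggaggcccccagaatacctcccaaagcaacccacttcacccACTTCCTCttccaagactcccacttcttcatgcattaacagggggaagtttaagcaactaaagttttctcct
Il1rn: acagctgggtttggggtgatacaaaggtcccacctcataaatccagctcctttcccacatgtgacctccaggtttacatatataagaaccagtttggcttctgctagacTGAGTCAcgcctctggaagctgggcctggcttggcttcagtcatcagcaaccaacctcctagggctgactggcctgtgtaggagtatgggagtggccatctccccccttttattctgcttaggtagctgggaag
Csf1: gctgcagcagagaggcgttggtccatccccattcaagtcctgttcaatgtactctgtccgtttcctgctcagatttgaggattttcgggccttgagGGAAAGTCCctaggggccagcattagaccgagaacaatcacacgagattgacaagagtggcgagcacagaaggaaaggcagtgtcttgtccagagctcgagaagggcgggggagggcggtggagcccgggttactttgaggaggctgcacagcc
Agxt2: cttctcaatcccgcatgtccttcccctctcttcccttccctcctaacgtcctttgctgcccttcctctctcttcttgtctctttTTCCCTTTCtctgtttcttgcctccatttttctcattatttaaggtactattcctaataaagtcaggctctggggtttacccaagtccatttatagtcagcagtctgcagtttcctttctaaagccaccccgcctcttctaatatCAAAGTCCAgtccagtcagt
Hpd: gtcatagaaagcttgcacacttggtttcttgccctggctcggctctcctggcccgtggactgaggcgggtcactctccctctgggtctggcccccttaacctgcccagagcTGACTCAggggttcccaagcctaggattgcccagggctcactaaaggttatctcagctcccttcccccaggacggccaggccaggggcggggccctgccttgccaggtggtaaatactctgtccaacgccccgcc

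Spp1 held an IRF match 156 bases and a PU.1 match 113 bases before the start, and Mmp12 a PU.1 match 88 bases before it. Il1rn held an AP-1 match and Csf1 an NF-kB match, 141 and 154 bases before the start. Agxt2 held an HNF4 match 21 bases before the start and also an IRF match, and Hpd an AP-1 match. Among named genes not shown, HNF4 matches lay 72 bases before the start of Aadat, which was lower. Another lay 171 bases before that of Gpnmb, which was higher. Over all windows, PU.1 letters were in 3.06%, and in 6.35% of the 1575 windows of genes called at least 2-fold higher and 1.89% of the 212 of genes called at least 2-fold lower. For NF-kB these shares were 1.28%, 2.48% and 0.472%, and for IRF 7.42%, 11.1% and 5.19%. The shares of lower genes rested on few windows: 4 for PU.1, 1 for NF-kB and 11 for IRF. AP-1 letters were in 5.32% of all windows, and in 8.89% of the windows of higher and 9.91% of those of lower genes. HNF4 letters were in 0.44%, 0.825% and 1.42%, the last from 3 windows. Base composition differed too, with a median GC content of 60.3% in all windows, 57.3% for higher and 54.5% for lower genes, and its part in these shares was not tested. A match describes letters and shows no binding.

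**Figure D3:**
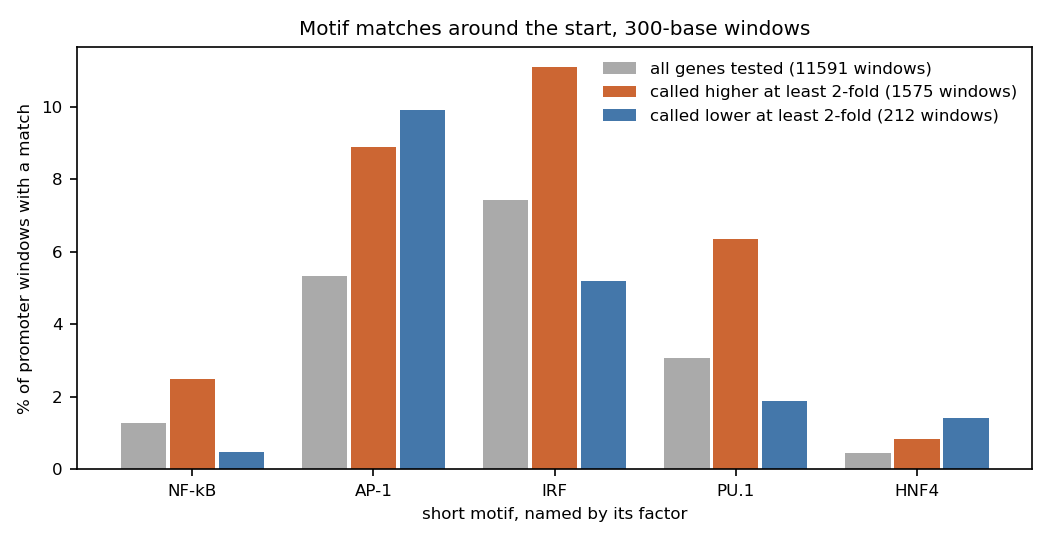
Bars give the percent of 300-base promoter windows with at least 1 match to each short motif, for all 11591 windows and for genes called higher (1575) or lower (212) at least 2-fold. PU.1 matches were in 6.35% of windows of higher genes against 3.06% of all.

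Gene lists are described by the members that passed the filter on low counts. Of all genes tested 26.4% were called higher and 23.1% lower, and a list near those shares did not stand out by its counts. A member that passed through oxalate libraries alone had to be higher, so counts and medians of lists of rare cells and signals describe the members tested and not all members. Tested were 23 of 38 listed oxidant and antimicrobial genes, 22 of 31 receptors for chemoattractants, 24 of 32 innate lymphoid and cytotoxic genes, 44 of 52 TNF superfamily genes and 31 of 35 chemokines.

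**Figure D4:**
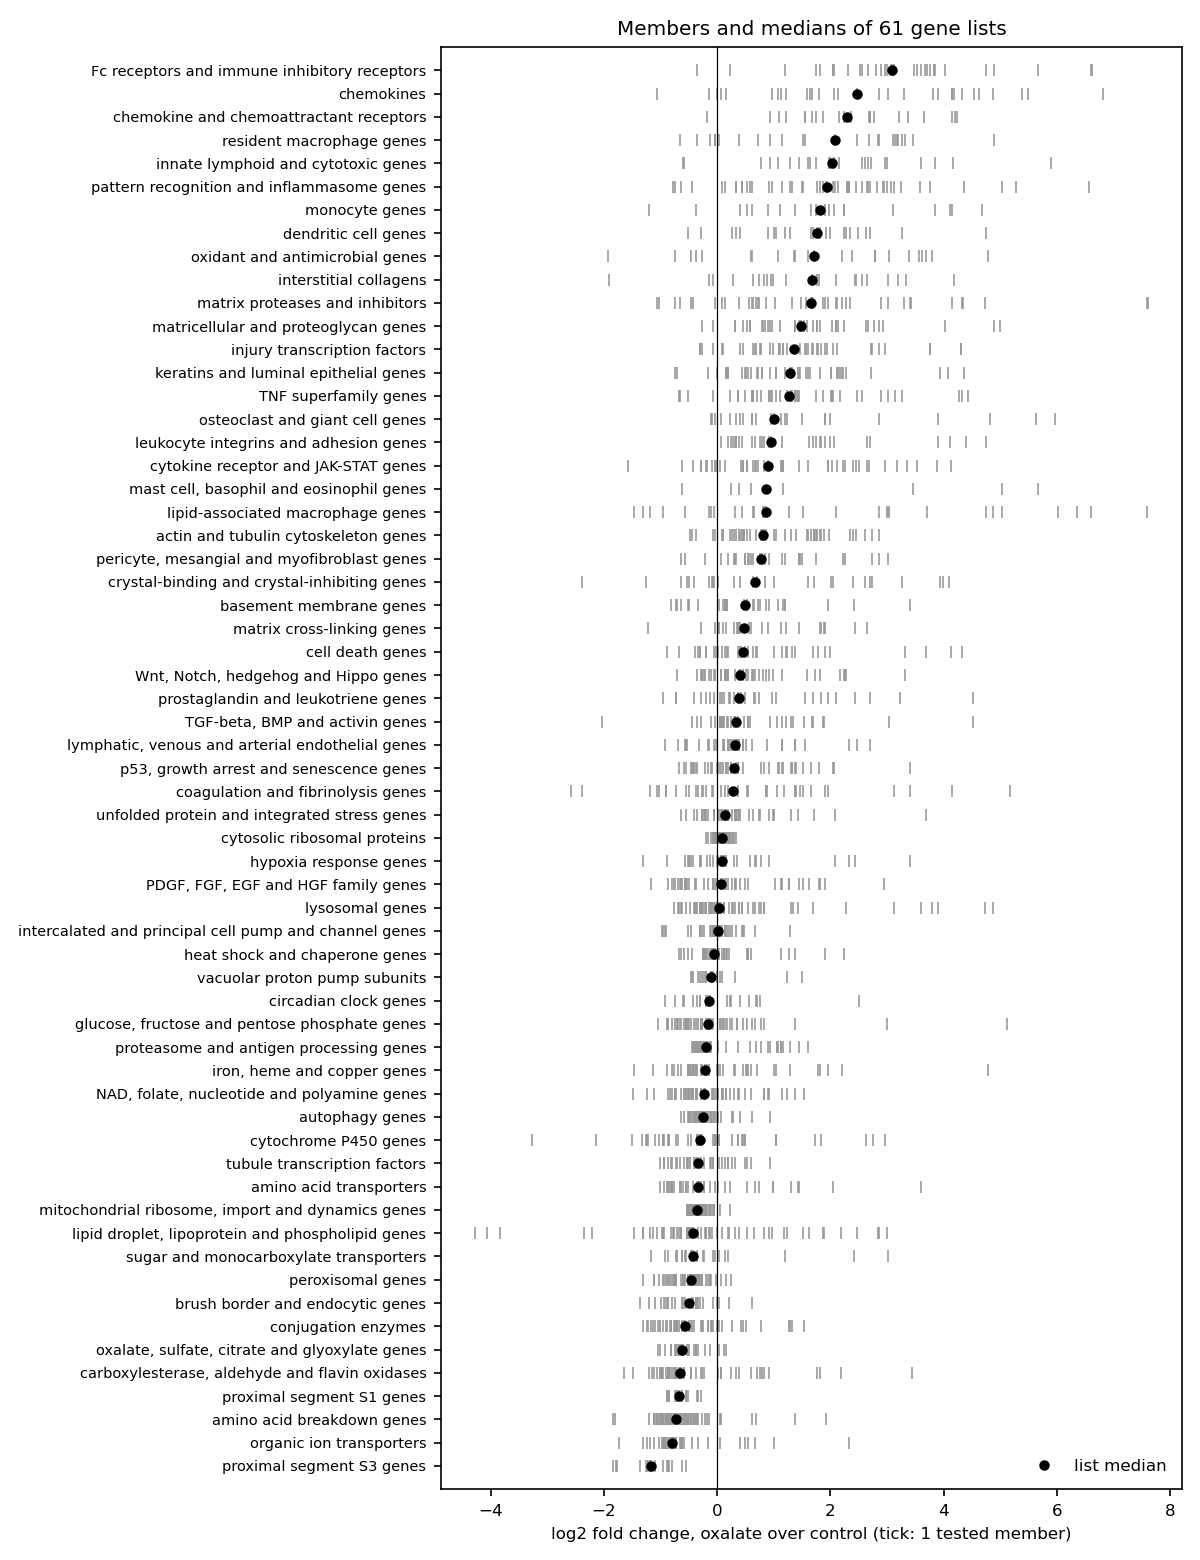
Each tick is the log2 fold change of 1 tested member of a gene list, and each dot the median of the list, over 61 lists sorted by median. Immune and matrix lists lie to the right, up to 3.09 for Fc and inhibitory receptors, and proximal tubule and metabolic lists to the left, down to -1.17 for segment S3 genes.

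Proximal tubule genes were lower along the length of the segment, and those of its last part, S3, the most. In bulk RNA fewer cells of a type and less RNA per cell cannot be told apart. Of 17 S3 genes 16 were lower and none was higher, with a median of -1.17. Aadat, which breaks down kynurenine and 2-aminoadipate in mitochondria, had 508, 422, 450.1, 517 and 517 CPM in controls and 120.3, 108, 208, 171 and 69.6 CPM in oxalate libraries, a change of -1.83 ± 0.25 (adjusted p = 1.28e-05). The organic anion transporter Slc22a19 was at -1.23 ± 0.20 and the brush border protease Mep1b at -1.37 ± 0.22. Of 15 S1 genes, from the first part, 12 were lower (median -0.67), 7 of them under total-count scaling. Slc6a19, the neutral amino acid transporter, was at -0.88 ± 0.18, and Folr1, the folate receptor, at -0.74 ± 0.18. S1 genes divided the oxalate libraries: the mean over the list was at -1.06 and -1.43 log2 units from the control mean in libraries 12 and 40, and at -0.35, -0.29 and -0.36 in libraries 3, 32 and 39. For S3 genes library 3 was the second lowest, at -1.29 against -1.05 in library 12.

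Brush border and endocytic genes were lower for 15 of 26, with none higher and a median of -0.50. Cubn, which takes up filtered protein with Lrp2, was at -1.09 ± 0.25 (named after its values were seen), Mep1a, a membrane protease, at -0.99 ± 0.20, and Rab11fip3, an endosome recycling gene, at -0.90 ± 0.16. Under total-count scaling 2 were higher and 12 lower. Slc34a1, the sodium-phosphate cotransporter, had 6507, 6618, 6816, 7423 and 7419 CPM in controls and 3419.5, 4386, 5134, 4179 and 1826 CPM in oxalate libraries, a change of -0.88 ± 0.23 (adjusted p = 0.0035). Slc5a2, the glucose transporter of S1, overlapped between groups, since oxalate library 3 (469 CPM) was within the controls (422 to 506 CPM). Its call (-0.55 ± 0.19) was lost without oxalate library 12 and under total-count scaling. It was also lost with limma (adjusted p = 0.0506) and with the 10 untreated libraries alone (adjusted p = 0.0653).

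Tubule transcription factors went lower for 16 of 35 and higher for 4, with a median of -0.33. Total-count scaling brought that median to -0.03, with 9 higher and 11 lower. Hnf4a, which keeps proximal tubule cells mature, had 852 to 1076 CPM in controls and 592, 575, 805, 614 and 271 CPM in oxalate libraries (-0.73 ± 0.22, adjusted p = 0.00842). The thyroid hormone receptor Thrb was at -0.93 ± 0.16 and Maf at -0.70 ± 0.13. Tfap2b, a distal tubule factor, rose by 0.50 ± 0.12.

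Transcription factors of injury and repair went the other way: 35 of 42 were higher and none lower, with a median of 1.36. Runx1, which takes part in the tubular response to injury, had 1.06, 0.891, 1.61, 0.974 and 1.36 CPM in controls and 21.5, 14.3, 9.43, 10.8 and 23.9 CPM in oxalate libraries, a change of 3.76 ± 0.31 (adjusted p = 1.78e-07). Its oxalate levels fell into a higher pair, libraries 12 and 40, and a lower pair, 32 and 39, with library 3 between. Sox11 rose by 4.30 ± 0.42, from a range of 0.113 to 0.285 CPM to one of 1.92 to 5.49, and Sox4, its relative, by 1.61 ± 0.16. By the mean over this list library 12 stood highest of the oxalate libraries, 1.99 above the control mean, and library 40 at 1.56, below library 3 at 1.70, while control library 19 stood 0.46 above that mean.

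Keratins and luminal epithelial genes had 33 higher and 2 lower among 43 members, with a median of 1.29. Krt20, a keratin of injured tubules and urothelium, had 0.0713 to 0.856 CPM in controls and 15.8, 7.92, 6.43, 4.2 and 7.07 CPM in oxalate libraries (4.35 ± 0.60). Cdh6, a cadherin of the developing proximal tubule, rose by 2.20 ± 0.19 and Dcdc2a, a cilium gene, by 2.01 ± 0.21, while Itgb6, an integrin subunit, was at -0.70 ± 0.15. Krt19, named after its values were seen, was at 2.72 ± 0.54, and at 3.58 without control library 26, which held 7.97 CPM against 0.296 to 2.45 in the other controls. That library also had the highest Upk2, a urothelial gene, among controls, at 2.62 CPM of total counts, against 2.52 in oxalate library 40, and the part of urothelium was not tested. Of 10 urothelium genes 1 was called, with a median of 0.43. Without control library 26, 2 were called and the median was 1.54, and no call was left without control library 13, 19, 35 or 9 or oxalate library 3, 39 or 40.

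The smallest p among higher genes fell on genes of varied roles. Vcam1, an adhesion molecule for leukocytes, had 7.02 to 14.1 CPM in controls and 197, 121, 95.4, 97.6 and 196 CPM in oxalate libraries. Aoc1, a diamine oxidase that breaks down histamine and putrescine, had 3.43 to 4.55 CPM in controls and 86.3, 53.2, 39.9, 44.5 and 92.1 CPM in oxalate libraries (3.99 ± 0.32). Serpina10, the plasma inhibitor of clotting factor X, rose from 1.30 ± 0.407 to 23.1 ± 8.13 CPM (SD), a change of 4.15 ± 0.32, and Gxylt2, a xylosyltransferase that acts on Notch, by 4.18 ± 0.32. Aldh1a2, which makes retinoic acid, rose by 3.44 ± 0.28. In each of these 5 genes libraries 12 and 40 were the 2 highest of the oxalate group. On the lower side Pde9a, a cyclic GMP phosphodiesterase (-0.87 ± 0.10), Ces2h, a carboxylesterase (-1.87 ± 0.22), and Ppp1r1b, a phosphatase inhibitor (-0.87 ± 0.12), had the smallest p beside Kcnt1 and Aqp4.

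Transporters of organic ions had 29 lower and 5 higher among 38 members (median -0.79). Slc47a1, which secretes organic cations into urine, had 843 to 982 CPM in controls and 487, 495, 648, 524 and 358 CPM in oxalate libraries (-0.83 ± 0.14). Slc22a6, the main uptake carrier of organic anions, was at -0.73 ± 0.25, with 378 CPM in library 40 and 792 to 1054 CPM in the other oxalate libraries, and it was not called under total-count scaling (adjusted p = 0.0636). Abcc3, an efflux pump, rose by 2.33 ± 0.40. Sugar and monocarboxylate transporters had 13 lower and 3 higher among 24 members, and 7 and 6 under total-count scaling. The lactate exporter Slc16a3 (2.42 ± 0.41) and Slc2a6 (3.01 ± 0.49) rose. Amino acid transporters had 19 lower and 9 higher among 40 members, a share called higher under the 26.4% of all genes. Under total-count scaling 11 were lower and 12 higher, and the median went from -0.34 to -0.04. Those that rose included Slc15a3, a lysosomal peptide and histidine carrier (3.6 ± 0.38), the arginine carrier Slc7a2 (2.05 ± 0.29) and Slc7a5, which exchanges large amino acids (1.43 ± 0.23).

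Genes that move or make oxalate, sulfate, citrate and glyoxylate had 19 lower and none higher among 26 members (median -0.62, and 11 lower under total-count scaling). Slc26a1, a basolateral exchanger of sulfate and oxalate, had 234, 189, 207, 263 and 234 CPM in controls and 110.1, 136, 177, 144 and 77.4 CPM in oxalate libraries, all below the controls (-0.81 ± 0.18, adjusted p = 0.00116). It overlaps another gene on the other strand. Agxt2, which transaminates glyoxylate, had 143 to 175 CPM in controls and 62.1 to 142 CPM in oxalate libraries, where library 39, at 142 CPM, stood just under the lowest control, at 143 (-0.68 ± 0.19). Hao2, a peroxisomal hydroxyacid oxidase named after its values were seen, was at -0.82 ± 0.25, and the groups overlapped. Hibadh, of valine breakdown, and Aco1, the cytosolic aconitase, were at -0.82 ± 0.17 and -0.63 ± 0.14.

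Genes of proteins that bind crystals or inhibit their growth had 15 higher and 6 lower among 30 members (median 0.67). The share called lower was under the 23.1% of all genes. Beside Spp1, Anxa1, a phospholipid-binding protein found on crystal-binding surfaces, had 7.07 to 11.8 CPM in controls and 135, 116, 51.0, 86.7 and 293 CPM in oxalate libraries (3.93 ± 0.41). F2, the gene of prothrombin, whose fragment inhibits crystal growth in urine, fell by 2.39 ± 0.32 on the log2 scale, from 0.719 to 1.22 CPM in controls to 0.0992 to 0.333 CPM. The list took 0.471% ± 0.0484 (SD) of the counts in controls and 0.951% ± 0.198 in oxalate libraries. Pumps and channels of intercalated and principal cells changed little as a list, with 4 of 36 higher and 7 lower and a median of 0.02, and 17 and 4 under total-count scaling. The sign of that median changed with no filter and without control library 13 or 26 or oxalate library 32 or 39. Aqp1 and Aqp7, water channels of the proximal tubule on that list, were at -0.92 ± 0.17 and -0.98 ± 0.14. Atp12a, the colonic type of proton-potassium pump, rose by 1.29 ± 0.30.

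Phagocyte genes rose in most lists. Resident macrophage genes had 18 higher and 1 lower among 25 members (median 2.08). C1qb, of the first complement component, had 10.5 to 21.8 CPM in controls and 163, 131, 72.6, 108 and 179 CPM in oxalate libraries (3.10 ± 0.30), and Adgre1, the F4/80 antigen, rose by 3.46 ± 0.35. Monocyte genes were higher for 13 of 20, such as Itgam (4.11 ± 0.44, overlapped by a predicted gene) and Ms4a6c (3.11 ± 0.34). Ace, on that list because monocytes carry it, is an enzyme of the proximal brush border and fell by 1.20 ± 0.29 on the log2 scale. Dendritic cell genes had 21 higher and 2 lower among 25 members (median 1.77), with Itgax at 4.74 ± 0.52 and Mgl2, a lectin, at 2.63 ± 0.26. Without library 40, where Itgax had 243 CPM against 28.9 to 104 in the other oxalate libraries, its change was 4.09.

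Lipid-associated macrophage genes had 23 higher and 3 lower among 31 members (median 0.87). Lgals3, the lectin galectin-3, had 25.1 to 37.7 CPM in controls and 141 to 418 CPM in oxalate libraries (3.04 ± 0.28), and Mmp14, a membrane protease, rose by 3.02 ± 0.28. Lpl, the lipoprotein lipase, was the opposite, with 1379, 1633, 1511, 1534 and 1645 CPM in controls and 678, 475, 683, 407 and 559.5 CPM in oxalate libraries (-1.46 ± 0.23), as was Cd36, a fatty acid receptor named after its values were seen (-0.96 ± 0.28). Osteoclast and giant cell genes had 18 higher and none lower among 25 members. Dcstamp, needed for the fusion of osteoclasts and macrophages, had at most 0.178 CPM in controls and 3.62, 2.10, 1.31, 2.32 and 8.28 CPM in oxalate libraries (5.96 ± 0.82, 7.25 without control library 19 and 5.32 without oxalate library 40). Ctsk, the osteoclast collagenase, rose by 3.89 ± 0.47, and by 3.30 without oxalate library 40. Acp5, the tartrate-resistant acid phosphatase of osteoclasts, did not follow them: it had 55.5, 64.8, 65.3, 69.0 and 61.4 CPM in controls and 69.8, 69.4, 64.4, 63.1 and 62.7 CPM in oxalate libraries, a difference of 0.06 with a 95% interval from -0.10 to 0.22. Under total-count scaling that difference was 0.36 and was called.

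**Figure D5:**
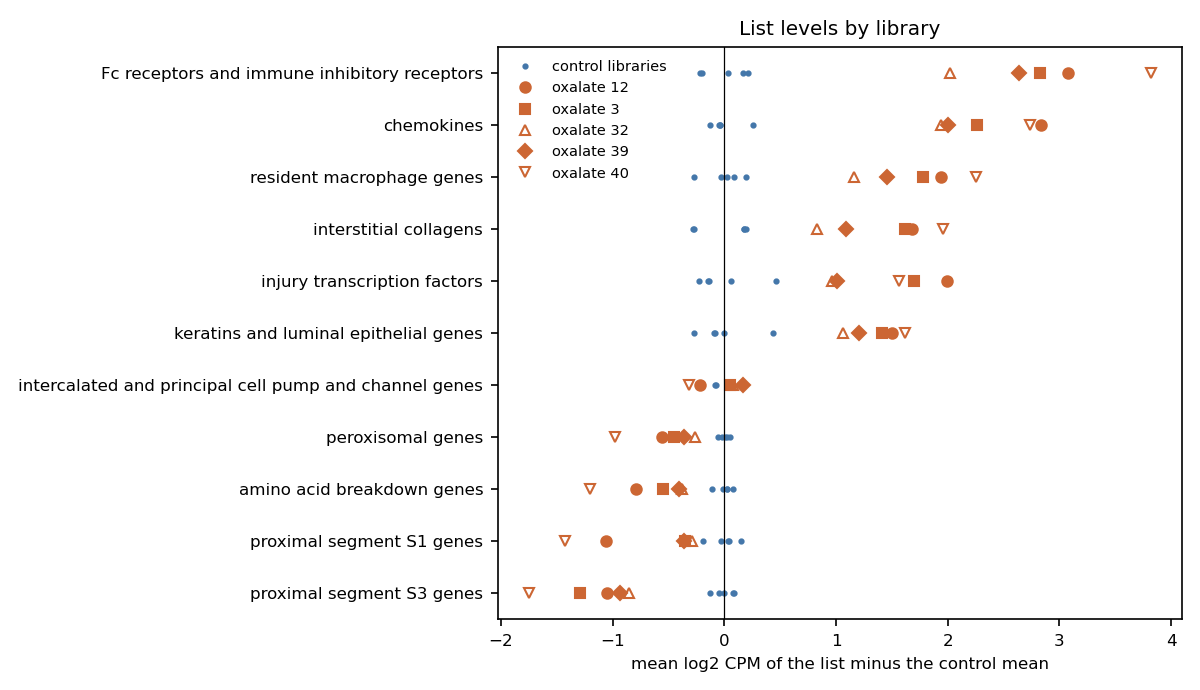
Mean log2 CPM of 11 gene lists in each library, as the distance from the mean of the 5 controls. Immune and matrix lists lay highest in oxalate library 40 or 12, and S1 genes lay lowest in libraries 40 (-1.43) and 12 (-1.06).

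Of 22 listed genes of mast cells, basophils and eosinophils 8 passed the filter on low counts, some through oxalate libraries alone. Called higher were 5, among them Siglecf, a lectin of eosinophils and of some macrophages (at most 0.113 CPM in controls and 0.815 to 6.65 CPM in oxalate libraries, 5.67 ± 0.83, and 5.06 without library 40), Il1rl1, the interleukin 33 receptor (3.46 ± 0.35), and Ear2, a ribonuclease with near-identical copies. Genes of innate lymphoid and cytotoxic cells had 20 higher and 2 lower among 24 members (median 2.03), and 10 were higher where a mean of at least 1 CPM was asked for. Il18r1 rose by 3.59 ± 0.35 and Ccl5 by 2.06 ± 0.24. Ccl5 levels of oxalate libraries lay close together, from 4.76 to 6.70 CPM, with library 32 the highest. Foxp3, the factor of regulatory T cells, named after its values were seen, was at or under 0.0811 CPM in controls and between 1.40 and 3.86 CPM in oxalate libraries (5.90 ± 0.70).

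Chemokines and their receptors were among the lists with the largest medians. Chemokines had 25 higher and none lower among 31 members (median 2.47), with Ccl17, which draws T cells, at 5.38 ± 0.47, Ccl6 at 4.15 ± 0.39, and Cxcl16, which tubule cells and macrophages make, at 1.58 ± 0.16. Cxcl5, which draws neutrophils and was named after its values were seen, had 0.137 CPM in control library 26 and none in the other controls, and 1.22 to 8.0 CPM in oxalate libraries. Receptors for chemokines and other attractants were higher for 21 of 22 (median 2.30), such as Ptafr for platelet-activating factor (4.24 ± 0.43) and the complement receptors C3ar1 (4.15 ± 0.44) and C5ar2 (3.65 ± 0.44). C3ar1 had 0.904 to 1.78 CPM in controls and 19.7, 20.7, 10.2, 18.6 and 50.3 CPM in oxalate libraries.

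Receptors that read antibody or restrain immune cells had the largest median of any list, 3.09, with 32 of 34 higher and 1 lower. Fcgr1, the high-affinity IgG receptor, had 0.847 to 1.82 CPM in controls and 10.2, 7.99, 6.0, 8.17 and 11.9 CPM in oxalate libraries (2.99 ± 0.28). The 1 lower gene was Fcgrt, the neonatal IgG receptor that tubule cells carry (-0.36 ± 0.14), and it was not called under total-count scaling or without control library 19, 35 or 9 or oxalate library 39. Nor was Fcgrt called with the 10 untreated libraries alone (adjusted p = 0.0732). Pattern recognition and inflammasome genes had 43 higher and 4 lower among 51 members (median 1.94). Il1rn had 0.0406 to 0.226 CPM in controls and 12.2, 10.2, 4.89, 7.21 and 28.0 CPM in oxalate libraries (6.57 ± 0.64). Il1b, the cytokine it blocks, had 0.616 to 0.998 CPM in controls and 13.8, 6.89, 3.46, 3.08 and 11.8 CPM (3.24 ± 0.45), and was highest in library 12 while Il1rn was highest in library 40. Nlrp3, a crystal sensor, rose by 2.45 ± 0.32 within a narrow range of 1.56 to 2.17 CPM, and Cd14 by 3.13 ± 0.31. Gsdme, a pore-forming gasdermin, was at -0.63 ± 0.12.

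Leukocyte integrins and adhesion genes had 23 higher and none lower among 31 members, with Itgb2 at 4.39 ± 0.45 and Selplg, a selectin ligand, at 2.64 ± 0.26. Oxidant and antimicrobial genes had 16 higher and 2 lower among 23 members. Cybb, a subunit of the phagocyte oxidase named after its values were seen, rose by 3.68 ± 0.44 (3.09 without oxalate library 40), and Mpeg1, perforin-2 of macrophages, by 3.61 ± 0.37. Nox4, the oxidase of tubule cells, went down by contrast, from 239 to 426 CPM in controls to 125, 237, 269.8, 272 and 108 CPM in oxalate libraries, with overlap (-0.74 ± 0.22). Cp, a copper oxidase that loads iron onto transferrin, rose by 2.21 ± 0.22. Cell death genes had 21 higher and 3 lower among 38 members, with the survival gene Bcl2a1b at 4.13 ± 0.44, whose near-identical copies leave its counts uncertain, and Birc3, an inhibitor of apoptosis, at 1.78 ± 0.22. Tfrc, which takes up iron, was at -0.88 ± 0.21.

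Among matrix genes, collagens of the interstitium had 18 of 23 higher and 1 lower (median 1.67). Col3a1 had 22.3, 29.4, 35.2, 31.9 and 30.2 CPM in controls and 351, 256, 117, 172 and 599 CPM in oxalate libraries (3.33 ± 0.40), and Col1a2 rose by 2.64 ± 0.32. In oxalate libraries the list took 0.172%, 0.138%, 0.0671%, 0.0895% and 0.270% of counts, against 0.0241% to 0.0377% in controls. The exception was Col6a6 (-1.91 ± 0.31). Basement membrane genes had 15 of 30 higher and 6 lower (median 0.50), and the share called lower was under the 23.1% of all genes. Col18a1 (1.16 ± 0.15) rose. Col4a3, a chain of the mature glomerular and tubular membrane, was at -0.82 ± 0.13 with 208 to 228 CPM in all oxalate libraries against 368 to 408 in controls.

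Matricellular and proteoglycan genes had 33 higher and none lower among 39 members (median 1.48). Fbn2, a fibrillin of developing tissue, rose by 4.88 ± 0.43 (5.51 without control library 19), Thbs2 by 2.62 ± 0.25, Tgfbi by 2.24 ± 0.22 and Tnc, of healing wounds, by 2.93 ± 0.41. Smoc2, a fibroblast-activating matrix protein named after its values were seen, rose by 3.40 ± 0.50. Cross-linking genes had 16 higher and 2 lower among 26 members. Lox, the lysyl oxidase, rose by 2.44 ± 0.31 and Loxl2 by 1.83 ± 0.25, while Tgm1, a transglutaminase, was at -1.22 ± 0.38. Proteases and inhibitors had 32 higher and 4 lower among 43 members (median 1.65). Timp1, the inhibitor of metalloproteinases, had 0.365 to 0.829 CPM in controls and 22.3, 12.9, 6.58, 8.10 and 23.6 CPM in oxalate libraries (4.73 ± 0.46). Plau, the urokinase that tubules release, was at -1.07 ± 0.19.

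Genes of pericytes, mesangial cells and myofibroblasts had 22 higher and 2 lower among 30 members (median 0.78), with the intermediate filament Vim at 2.73 ± 0.29 and Thy1 at 2.86 ± 0.35. Ren1, of renin cells, was at -0.63 ± 0.21 and was not called under total-count scaling (adjusted p = 0.164), or without the 3 libraries with Adipoq above 1 CPM (adjusted p = 0.058). Endothelial genes of lymphatic, venous and arterial type had 15 higher and 5 lower among 38 members (median 0.32). Pdpn, a glycoprotein of lymphatics and podocytes, rose by 2.46 ± 0.25, and Edn1, the vasoconstrictor endothelin, by 2.33 ± 0.24. Genes of clotting and clot lysis had 18 higher and 9 lower among 40 members (median 0.28), with the share called lower near the 23.1% of all genes. Thbd (1.38 ± 0.15) and Pros1 (1.52 ± 0.17), both anticoagulant, rose.

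Of genes of TGF-beta, BMP and activin signals 17 of 38 were higher and 3 lower (median 0.34). Tgfb2, a ligand, was at 1.87 ± 0.22 and Inhba, which forms activin, at 3.04 ± 0.37. The BMP antagonist Grem1, named after its values were seen, rose by 4.52 ± 0.55, and Chrdl1, above, was lower. Growth factors of the PDGF, FGF, EGF and HGF families and their receptors had 12 higher and 15 lower of 47, near the 26.4% and 23.1% of all genes, and 21 and 6 under total-count scaling. Csf1 had 8.33 to 14.1 CPM in controls and 53.5, 40.8, 23.4, 23.5 and 49.1 CPM in oxalate libraries (1.91 ± 0.27), and Pdgfa and Pdgfb rose by 1.13 ± 0.15 and 1.27 ± 0.17. Wnt, Notch, hedgehog and Hippo genes had 19 higher and 2 lower among 45 members, with Wnt10a at 3.31 ± 0.32 and Dkk3 at 1.81 ± 0.21.

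Cytokine receptors and JAK-STAT genes had 34 higher and 3 lower among 48 members (median 0.89). Osmr, the oncostatin M receptor, had 6.69 to 11 CPM in controls and 70.3, 56.9, 33.5, 36.3 and 71.5 CPM in oxalate libraries (2.64 ± 0.26), and Ifngr2 rose by 1.17 ± 0.13. Il22ra1, the epithelial receptor for interleukin 22, was at -1.58 ± 0.27. TNF superfamily genes had 36 higher and 2 lower among 44 members (median 1.27), with Traf1 at 2.16 ± 0.21 and Ltb at 2.55 ± 0.27. Tnfsf10, the death ligand TRAIL, was at -0.67 ± 0.19 and was not called under total-count scaling (adjusted p = 0.127). Prostaglandin and leukotriene genes had 15 higher and 4 lower among 32 members. Ptgds (2.44 ± 0.23) and Alox5ap, needed to make leukotrienes (2.7 ± 0.29), rose, and Cyp2j5, an epoxygenase of the proximal tubule, was at -0.95 ± 0.22.

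In metabolism, genes that break down amino acids had 56 lower and 2 higher among 67 members (median -0.73, and 43 lower under total-count scaling). Mccc2, of leucine breakdown, was at -1.03 ± 0.14, and Hpd, of tyrosine breakdown and named after its values were seen, at -1.81 ± 0.39, with 51.4, 38.6, 43.8, 56.5 and 62.8 CPM in controls and 9.32, 16, 20.2, 22.3 and 4.80 CPM in oxalate libraries. Arg2, the mitochondrial arginase, rose by 1.37 ± 0.24. Peroxisomal genes had 47 lower and 1 higher among 62 members (median -0.47), as for the assembly genes Pex3 (-0.59 ± 0.09) and Pex7 (-0.60 ± 0.11), and 29 were lower under total-count scaling. Carboxylesterases, aldehyde dehydrogenases and flavin oxidases had 34 lower and 10 higher among 55 members (median -0.66), and Aldh1a1 (1.82 ± 0.20) rose as Aldh1a2 did. Conjugation enzymes had 29 lower and 6 higher among 53 members (median -0.56). Nat2, an acetyltransferase, was at -0.90 ± 0.16, and the glutathione transferases Gsta2 (0.78 ± 0.13) and Gstm6 (1.29 ± 0.18), which have close copies, rose.

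Cytochrome P450 genes had 17 lower and 9 higher among 46 members, and 14 went each way under total-count scaling. Cyp1b1 (1.72 ± 0.22) and Cyp4f18, of leukocytes (2.96 ± 0.40), rose, and Cyp2b10, named after its values were seen, fell by 3.26 ± 0.78 on the log2 scale, from 0.820 to 4.99 CPM in controls to at most 0.641 CPM. Lipid droplet, lipoprotein and phospholipid genes had 22 lower and 17 higher among 61 members, and 13 and 21 under total-count scaling. Here too the share called higher was near the 26.4% of all genes. The mean of this list stood 0.64 and 0.20 log2 units above the control mean in control libraries 26 and 9, where that of the fat, adrenal and muscle list stood 3.31 and 2.38 above it. Without those controls and oxalate library 32 the median was -0.19 in place of -0.43, with 20 lower and 18 higher. Apoe had 75.6 to 139 CPM in controls and 965, 848, 427, 588 and 906 CPM in oxalate libraries (2.84 ± 0.30). Pltp, which transfers phospholipid, rose by 2.47 ± 0.28 and Lpcat2, which makes platelet-activating factor, by 2.86 ± 0.33. The medians of 2 further lists changed sign under total-count scaling: genes of NAD, folate, nucleotides and polyamines (12 of 58 higher and 26 lower, -0.23 to 0.07) and of glucose, fructose and the pentose phosphate path (10 of 53 higher and 22 lower, -0.17 to 0.13). Eno2, an enolase, rose by 3.0 ± 0.40 and Pfkp, a phosphofructokinase, by 0.82 ± 0.15. Ppargc1a, a driver of mitochondrial genes, was at -0.48 ± 0.11 and was not called under total-count scaling (adjusted p = 0.0672).

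Among cell machinery, genes of mitochondrial ribosomes, import and dynamics had 42 lower and 1 higher among 61 members by small amounts (median -0.36), and 9 were lower and 6 higher under total-count scaling. Mfn2, of mitochondrial fusion, was at -0.48 ± 0.09. Cytosolic ribosomal proteins were nearly level, with 5 of 79 higher, none lower and a median of 0.09. That count was 72 under total-count scaling and 12 with limma. Leaving out libraries gave 1, without controls 9 and 26 and oxalate 32, to 8, without control library 35. Actin and tubulin cytoskeleton genes had 36 higher and 3 lower among 48 members (median 0.81), with Coro1a of leukocytes at 2.35 ± 0.22 and Tuba1a at 1.97 ± 0.20. Lysosomal genes had a median of 0.03 with 24 of 65 higher and 15 lower (37 and 7 under total-count scaling). The share of them called lower was near the 23.1% of all genes. This list took 1.31% ± 0.0691 (SD) of counts in controls and 1.76% ± 0.271 in oxalate libraries. Ctss, the cathepsin of antigen-presenting cells, had 9.17 to 16.6 CPM in controls and 328, 303, 132, 250 and 734 CPM in oxalate libraries (4.86 ± 0.46), and Slc11a2, a metal transporter of tubules, was at -0.77 ± 0.11.

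Of 44 proteasome and antigen processing genes, 16 were higher and 17 lower (20 and 0 under total-count scaling), and the median of -0.19 became 0.11 under total-count scaling. The immunoproteasome subunit Psmb8, named after its values were seen, rose by 1.45 ± 0.20, and the MHC class I genes H2-D1, H2-K1 and H2-Q7, which share near-identical stretches, by 1.05 to 1.13. Levels of H2-K1 were even, from 202 to 239.5 CPM in controls and from 413 to 514 CPM in oxalate libraries. Proton pump subunits (3 of 19 higher and 6 lower, median -0.11 to 0.19), autophagy genes (3 of 42 and 19, -0.25 to 0.05), heat shock genes (6 of 38 and 6, -0.05 to 0.24), iron, heme and copper genes (13 of 45 and 18, -0.22 to 0.07) and clock genes (4 of 21 and 4, -0.15 to 0.12) also had medians that changed sign under that scaling. Iron genes called higher were near the 26.4% of all genes, and heat shock and clock genes were under both the 26.4% and the 23.1%. Tcirg1, a pump subunit of osteoclasts and macrophages, rose by 1.5 ± 0.23, Slc39a8, a zinc importer, was at -1.14 ± 0.16, and Bhlhe41, a clock repressor, rose by 2.51 ± 0.34.

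The small heat shock genes Hspb8 (1.91 ± 0.22) and Hspb1 (2.24 ± 0.36, named after its values were seen) rose, and both were highest in library 12, with 52.7 and 98.0 CPM against 21.8 to 30.9 and 22.6 to 50.8 CPM in the other oxalate libraries. Without library 12, 3 heat shock genes were called higher in place of 6. Unfolded protein and integrated stress genes had 14 higher and 5 lower among 44 members (median 0.14), a share called higher near the 26.4% of all genes. Stc2, a secreted stress hormone, was at 2.08 ± 0.19. Genes of p53 and growth arrest had 21 higher and 7 lower among 44 members (median 0.30). Cdkn1a, which halts the cell cycle, had 8.0, 17.7, 8.38, 8.60 and 11.6 CPM in controls and 45.3, 42.4, 17.7, 24.3 and 41.8 CPM in oxalate libraries, where control library 19 and oxalate library 32 met (1.66 ± 0.29). Hypoxia response genes had 6 higher and 10 lower among 37 members (median 0.09), and 15 and 3 under total-count scaling. Their share called lower was near the 23.1% of all genes. Hmox1, which breaks down heme, had 95.3 CPM in control library 19 and 33.1 to 44.6 in the other controls against 52.2 to 82.8 CPM in oxalate libraries. It was not called (0.45 ± 0.22, adjusted p = 0.0913). In separate fits it was called without control library 19 (0.79, adjusted p = 0.000616), under total-count scaling (0.74, adjusted p = 0.00623) and with limma (0.53, adjusted p = 0.0305).

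Among genes with a mean log2 CPM at or above 1 in oxalate libraries, those that varied most there included immediate early genes. These are the rapid transcriptional answer of cells to a stimulus. Nr4a1 had 147 and 176 CPM in libraries 12 and 3, and 4.98, 8.17 and 23.8 CPM in libraries 32, 39 and 40. In controls it had 66.9 CPM in library 19 and 3.56 to 7.76 CPM elsewhere. Fosb, Egr1 and Nr4a3 were high in the same 3 libraries. Nr4a1 was not called (1.97 ± 0.92, adjusted p = 0.0836). In separate fits it was called without control library 19 (3.53), without oxalate library 32 (2.22), under total-count scaling (2.26) and with limma (2.52). Nr4a3 was called (2.74 ± 0.99) but lost its call without control library 13, 26, 35 or 9 or oxalate library 12 or 3. Without control library 19, where it had 10.7 CPM, Nr4a3 was at 5.33, and without oxalate library 12 at 2.10. The call of Nr4a3 was also lost with the 10 untreated libraries alone (adjusted p = 0.0776) and with no filter (adjusted p = 0.0517). Zbed6 and Zfp871 were low in control library 9 and oxalate libraries 12, 3 and 40, with Zfp871 at 3.20 to 4.80 CPM there and at 20.2 to 49.9 CPM in the others, so that neither was called.

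A set of 2540 genes (16.5%), 44 of them called, had a 95% interval of the change that lay within 0.32 log2 units of 0. The most abundant of them were Ftl1, the ferritin light chain (0.00, interval -0.29 to 0.30), Itm2b (-0.06, -0.25 to 0.13), Ddx5, an RNA helicase (-0.00, -0.24 to 0.24), Igfbp7, Cd63, a tetraspanin of lysosomes, and Serinc3. These intervals are relative to TMM scaling: under total-count scaling Itm2b and Cd63 were at 0.24 and 0.20 and were called, as were Ftl1, Igfbp7 and Serinc3.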

How the data were processed

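The deposited files held whole-number counts per gene for each library, which the authors made from stranded poly(A) libraries. Per the submitters' processing notes the tools were bcl2fastq 2.19, Trimmomatic, STAR 2.7.1, featureCounts and edgeR. The notes name the human build GRCh38.p5, although the gene identifiers are mouse, and the annotation and strand setting are not given in the sources used here, so genes that overlap another are uncertain. Of 25700 identifiers, 25664 matched GENCODE M21 (GRCm38), which gave symbols and coordinates. The 36 unmatched held at most 0.0226% of a library's counts. Counts of all 20 libraries were fitted in edgeR 4.0.16 (R 4.3.3) with TMM factors (0.867 to 1.28 in the 10 untreated libraries), filterByExpr at a minimum count of 10, which removed 10270 genes, and a robust quasi-likelihood test with 1 mean per group. The genes kept held at least 99.9% of each library's counts. P-values were adjusted by Benjamini-Hochberg over 15430 genes, CPM was scaled by TMM unless stated, and list scores used a prior count of 2. The members, lists and comparisons were chosen with earlier results of these data known. Named genes were, per list, up to 3 called members with the smallest p. Also named were the largest changes without overlap of libraries, the largest gains and losses of CPM and the smallest p-values. A panel chosen by hand, the most abundant genes with a 95% interval within 0.32 of 0 and the most variable genes in oxalate libraries were added. Others are marked as named after their values were seen. Alternatives used limma 3.58.1, DESeq2 1.42.0, other scaling and filters, and each library left out. In simulated counts of 14841 genes for this comparison, the test called 43.1%, 83.1% and 92.3% of 65 genes changed 1.5-, 2- and 4-fold, with 3 false calls. The simulation changed few genes, in both directions, and gave all groups the same spread per gene. In the real libraries 49.4% of genes were called and oxalate libraries spread more (median SDs 0.24 and 0.18). The simulated false calls therefore do not give the rate of false calls here. Results for some genes and 1 of the motifs searched are not reported here.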

Additional observations from a re-analysis of the deposited data

Results flagged for a closer look

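In 22 of 424 groups of 5 libraries examined, 1 library lay apart from the other 4 by a gap of over 0.71 of the group's range in log2 CPM. Chance alone sets about 1 in 20 groups apart. Control library 19 stood high for Egr1 (91.0 CPM), Nr4a1 (66.9), Hmox1 (95.3) and Fcgr1 (1.82), and low for Synpr (0.214). Control library 13 stood high for Mep1b (306 CPM), Ppargc1a (98.4) and Slc39a8 (88.6), and low for Pltp (5.12) and Coro1a (4.99). Control library 26 stood high for Cxcl5 (0.137 CPM), control library 35 low for Aldh1a1 (5.60) and Ddx5 (681), and control library 9 low for Zbed6 (2.37).

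Oxalate library 40 stood low for Aco1 (217 CPM), Fcgrt (110.4), Ftl1 (1213), Mfn2 (90.0) and Slc22a6 (378), and high for Bhlhe41 (23). Oxalate library 32 stood high for Adipoq (3.12 CPM), and oxalate library 3 low for Ltb (2.30).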

How the results depend on the processing

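Total-count scaling had the widest effect, with 7498 genes higher, 1308 lower and 111 lower at least 2-fold. Itm2b and Cd63 reversed under it, at 0.24 and 0.20, and of the other 210 named genes 10 lost and 7 gained a call. It moved the counts of 23 of 64 lists by over 1.5 times and the sign of 8 medians. The median of all genes moves with the scaling by construction. Leaving out 1 library at a time gave 3332 to 4144 genes higher and 3114 to 4351 lower, with 1805 to 2333 higher and 244 to 520 lower at least 2-fold. Without control libraries 9 and 26 and oxalate library 32, chosen after seeing the data as those with Adipoq above 1 CPM, 574 genes were lower at least 2-fold, and the cause was not tested. The medians of the cytosolic ribosomal proteins and of the intercalated and principal cell genes changed sign there, and 3 named genes lost their call. With DESeq2 4133 genes were higher and 3865 lower, and with limma 4429 and 4046. A fit of the 10 untreated libraries alone tested 14918 genes, with 3748 higher and 3220 lower, and 4 named genes lost their call. RLE factors changed no call among the 212 named genes. Ratios of genes with few control counts are limited by depth. No paired analysis was possible because the 2 groups share no replicate number.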
